A study of Homo sapiens with 3 samples.

Results

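Bladder cancer driver genes are genes recurrently altered in urothelial carcinoma. The 47 examined here were taken as a named list, and all 47 were found by symbol among 20033 protein-coding genes of the GRCh38.p14 gene table. They were read in a ChIP-seq study of histone H2A acetylated at lysine 130 in UMUC3 cells, an established human bladder cancer line. One library came from cells given cigarette smoke media (10% for 3 days), one from air-exposed cells and one was an input. The treatment text with the smoke media stands on all 3 samples, the air and input samples included, so the smoke and air groups rest on the treatment label and the series' design text. Each of the 2 immunoprecipitated libraries had 1 deposited peak list, the input entered no comparison, and with 1 library per group no difference below has a replicate check or a p-value.

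Acetylation of histone lysines takes away their positive charge and is a common feature of accessible, transcribed chromatin. It is written by acetyltransferases, among them p300 and CBP, the products of EP300 and CREBBP, which are themselves on the list. Urothelial carcinomas often carry damage in receptor tyrosine kinase and RAS signalling, in the RB and p53 pathways that hold back the cell cycle, and, unusually often for a solid tumour, in enzymes that modify chromatin. Other altered genes encode transcription factors of the urothelium. The list was ordered by these roles.

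The smoke list held 23975 peaks and the air list 27010, and read depth is unknown because peak lists carry no totals. Median peak widths were 225 and 277 bp, and a q of 0.05 or lower was given by the authors' peak caller to 44.4% of the smoke list and 60.4% of the air list. Every fold, −log10 p and −log10 q below is the authors' value for a single peak. The peaks used are in hg38 coordinates. Gene positions came as spans without exons, so no peak was placed in an exon, intron or UTR. Of 8 urothelial marker genes (uroplakins and keratins) 1 had a peak within 1 kb, in smoke. The other 7 had none, against 7.15 for protein-coding genes of similar length, so this count is near the background. Peak lists do not measure expression, so the line's identity was not checked by it.

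Peaks lay over or within 1 kb of 19 of the 47 driver genes in at least one library. Both libraries had peaks at 11 of them, 4 had peaks in smoke alone and 4 in air alone. Among peaks with a q of 0.05 or lower 1 driver gene had peaks in smoke alone and 6 in air alone. At that q 7 driver genes had a smoke peak and 12 an air peak, beside 14.4% and 19.3% of all protein-coding genes. The shares of all genes in 1 library alone were not counted at that q, so the counts of 1 and 6 have no background. Smoke peaks at all protein-coding genes fell at that q from 46.6% to 39.2% of the peaks of both lists. With all listed peaks, 35.4% of protein-coding genes had a peak in either library and 14.6% in both. Smoke alone then accounted for 9.55% and air alone for 11.2%. By library, 15 driver genes had a smoke peak and 15 an air peak, beside 24.2% and 25.8% of all protein-coding genes. Longer genes hold more peaks, and the driver genes, with a median span of 46.9 kb, were longer than the 24.1 kb of all genes. Protein-coding genes were therefore ranked by span and divided into 10 equal parts. Summing the share of genes with a peak in each driver gene's own part gave 16.7 driver genes for smoke and 17.6 for air. The counts of 15 and 15 lay just under these sums and are near the background.

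**Figure D1:**
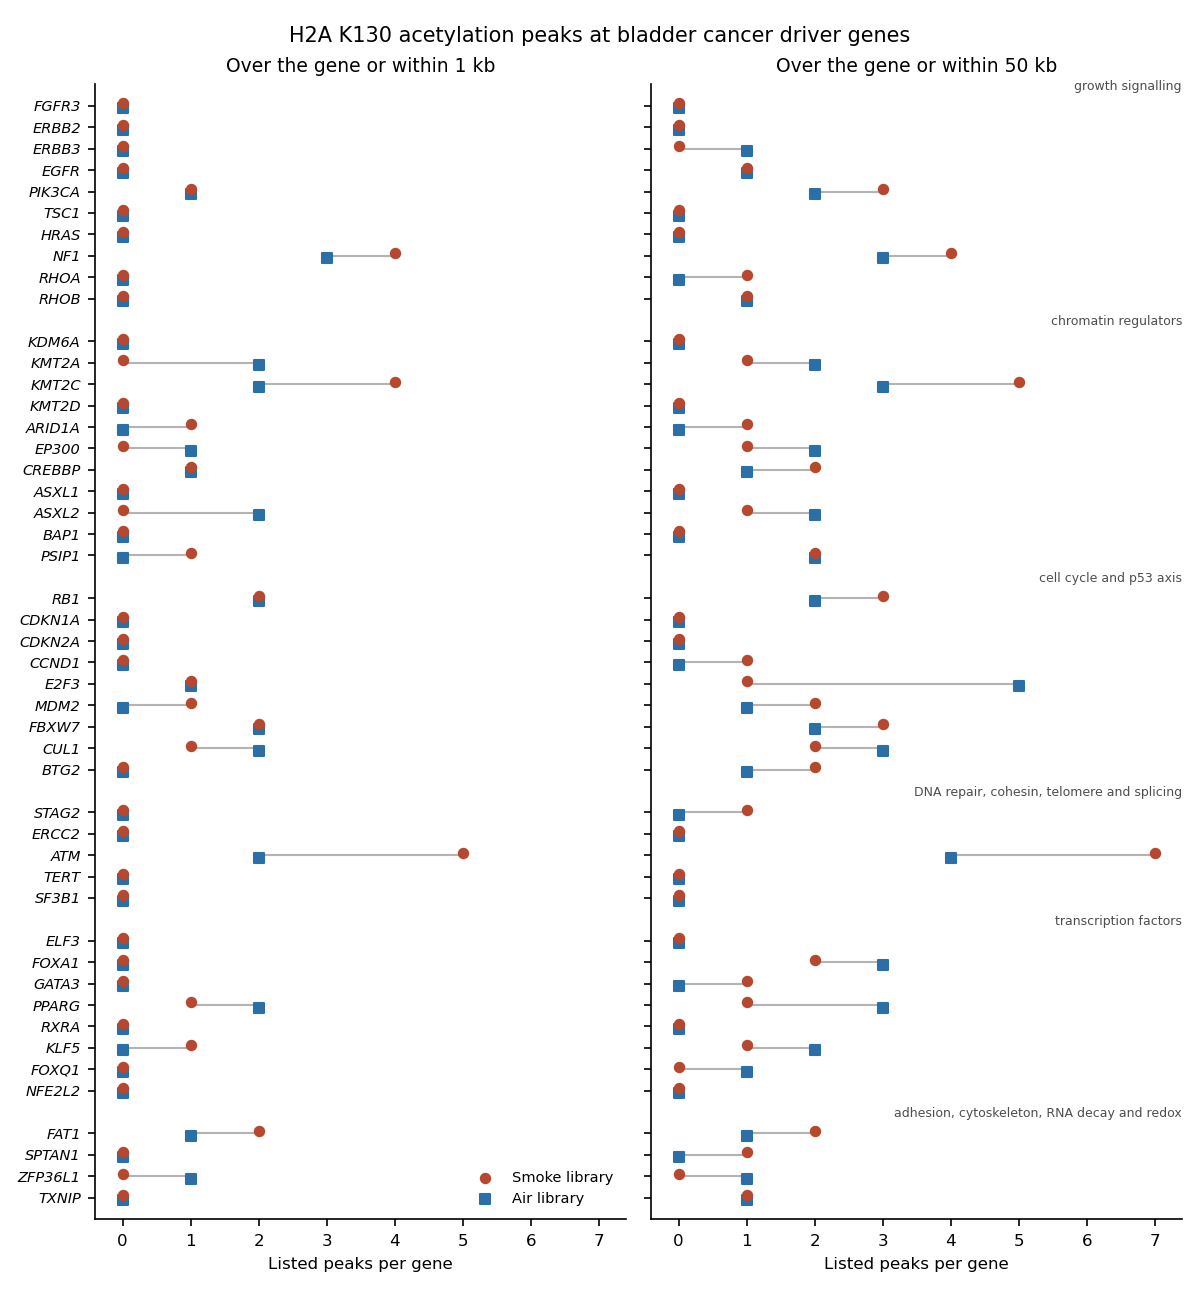
Listed peaks of the smoke library (circles) and air library (squares) for each of the 47 driver genes, by role, counted over the gene or within 1 kb (left) and within 50 kb (right). Lines join the 2 libraries of a gene, and most genes sit at 0 in the left panel, with ATM reaching 5 in smoke.

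In numbers of peaks, the driver genes held 28 smoke and 25 air peaks, counted over the gene and 1 kb on each side. Genes of the same length part would give 38.3 and 43.8. The 7 driver genes of the longest part averaged 224 kb against 347 kb for all genes in it. With the 200 protein-coding genes nearest in length to each driver gene in place of the parts, the sums were 30.3 and 33.6. The smoke count was thus close to that of genes of equal length, and the air count was lower. Per Mb of gene span the driver genes had 7.25 smoke and 6.72 air peaks, and all protein-coding genes 8.10 and 9.26.

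Smoke peaks made up 52.8% of the peaks at driver genes (95% Wilson interval 39.7 to 65.6, counting error only), against 46.6% at all protein-coding genes. The interval includes the share of all genes. Among peaks with a q of 0.05 or lower the order turned, with 9 peaks from smoke and 19 from air at driver genes, a smoke share of 32.1% (17.9 to 50.7) against 39.2% at all protein-coding genes. Of the 28 smoke peaks 32.1% passed this q (17.9 to 50.7), and of the 25 air peaks 76.0% (56.6 to 88.5). No smoke peak at a driver gene overlapped an air peak by even 1 bp, also within 50 kb. The same held for nearly all peaks of these lists: 380 of the 23975 smoke peaks, 1.58%, overlapped any air peak, and 1.26% of those within 1 kb of a protein-coding gene. The nearest pair at a driver gene lay 1.12 kb apart. The median distance from a smoke peak at a driver gene to the nearest air peak was 29.5 kb, against 28.6 kb over the whole smoke list.

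**Figure D2:**
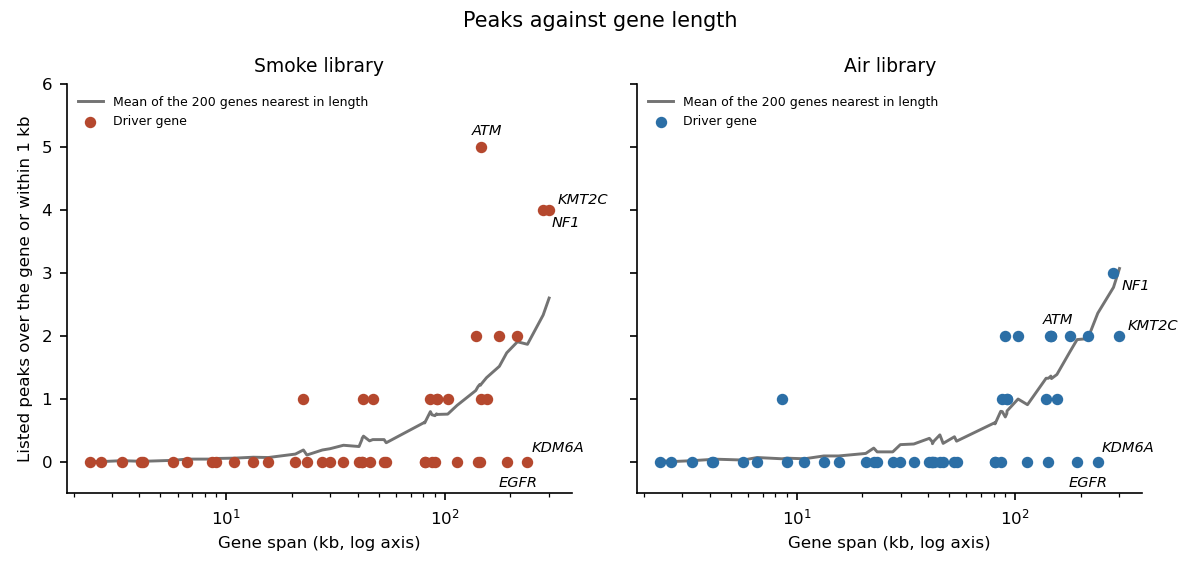
Peaks over each driver gene or within 1 kb (points) against gene span (log axis), with the mean of the 200 protein-coding genes nearest in length (line). ATM in smoke lies above the line, and EGFR and KDM6A lie at 0 in both libraries.

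Long driver genes had peaks more often than short ones, but not evenly along the range of lengths. Of the 15 driver genes in the 5 shortest parts, 2 had a peak within 1 kb, where the parts' shares sum to 1.60. In part 9, from 83.5 to 152 kb, 10 of 12 had one, against a sum of 9.18. In parts 6 to 8 only MDM2 and PSIP1, 2 of 13 genes, had a peak, against a sum of 5.87. In the longest part 5 of 7 had one, against a sum of 6.50; the 2 without were EGFR and KDM6A.

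Of the driver genes 3 had a peak with its summit within 1 kb of an annotated transcription start. They were FAT1 and MDM2 in smoke and ZFP36L1 in air. Starts were known for 44 of the 47 genes, and the share of all genes with such a peak was not counted. Over whole lists 0.809% of smoke and 0.826% of air summits lay within 1 kb of a start of a protein-coding gene. Those are shares of all peaks, unlike the count of genes. Only 10440 of 23975 smoke and 11932 of 27010 air peaks lay within 1 kb of any protein-coding gene. FAT1, an atypical cadherin that acts as a tumour suppressor in several carcinomas, had the strongest smoke peak of any driver gene. Its peak lay on chr4:186725844-186726132, inside the gene with its summit 703 bp downstream of the start at 186726696 on the minus strand. The −log10 q was 4.42 at a fold of 6.11, rank 55 of 23975 in the smoke list. The nearest air peak was 35.7 kb away. MDM2, the ubiquitin ligase that marks p53 for destruction, had a weaker smoke peak on chr12:68807727-68807876, with its summit 358 bp upstream of the start at 68808172. Its fold was 3.34 and its q 0.0914, and the nearest air peak was 9.75 kb away. ZFP36L1 binds AU-rich elements and speeds the decay of short-lived messenger RNAs. Its only peak, in air, lay on chr14:68792591-68792851, 692 bp downstream of an inner start at 68793416, with a fold of 3.51 and a q of 0.0383.

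The 250 bases before these 3 starts are shown because they are the only driver promoters with a listed peak within 1 kb. The peaks lie outside the windows, from 296 bp upstream of the MDM2 start, from 564 bp downstream of the FAT1 start and 565 bp downstream of the ZFP36L1 start. Sequences are from RefSeq (GRCh38.p14), written in the direction of transcription. Capitals mark GC boxes (GGGCGG or CCGCCC, the motif read by SP1 and its relatives) and the palindromic cAMP response element TGACGTCA, which CREB family factors bind.
FAT1, chr4:186726697-186726946, minus strand: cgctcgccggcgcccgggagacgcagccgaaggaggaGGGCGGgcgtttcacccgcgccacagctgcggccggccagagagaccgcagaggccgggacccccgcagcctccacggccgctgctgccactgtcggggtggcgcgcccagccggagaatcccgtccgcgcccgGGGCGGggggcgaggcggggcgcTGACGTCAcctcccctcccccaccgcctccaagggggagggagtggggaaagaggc
MDM2, chr12:68807922-68808171, plus strand: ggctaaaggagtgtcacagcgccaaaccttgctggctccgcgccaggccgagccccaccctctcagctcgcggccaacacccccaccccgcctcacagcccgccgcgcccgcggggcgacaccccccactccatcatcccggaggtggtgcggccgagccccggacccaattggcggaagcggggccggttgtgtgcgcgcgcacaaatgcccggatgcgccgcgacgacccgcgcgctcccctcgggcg
ZFP36L1, chr14:68793417-68793666, minus strand: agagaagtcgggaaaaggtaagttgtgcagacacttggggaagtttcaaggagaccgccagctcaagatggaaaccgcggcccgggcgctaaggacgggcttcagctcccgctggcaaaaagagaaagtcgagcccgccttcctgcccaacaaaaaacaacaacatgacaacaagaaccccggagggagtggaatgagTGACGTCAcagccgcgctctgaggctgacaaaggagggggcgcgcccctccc

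The FAT1 and MDM2 windows were rich in G and C, at 78.0% and 74.4%, with 32 and 33 CpG dinucleotides. The ZFP36L1 window had 58.4% and 16 CpG. FAT1 held 2 GC boxes and the other two held 0; 42.3% of 27305 promoters, 1 window per gene of the RefSeq table, hold at least 1 on either strand. FAT1 and ZFP36L1 each held 1 TGACGTCA, as do 1.77% of all promoters. This motif was chosen after the FAT1 sequence was seen, so the match in FAT1 is no separate observation. The core GCGTG of aryl hydrocarbon receptor elements, the response to many smoke compounds, was searched on both strands and is not in these 3 windows. It stands in 18 of the 44 driver promoters, 40.9%, and in 31.9% of all promoters. GC boxes stand in 27 of the 44, 61.4%. These shares were not tested, and the 27305 promoters include genes that are not protein-coding. The driver promoters were also richer in G and C, with a median of 67.0% against 62.7% for protein-coding genes.

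Among the 10 genes of growth signalling, peaks within 1 kb lay at NF1 and PIK3CA, both with peaks in both libraries. The other 8 had none, against a sum of 5.36 genes without a peak from genes of the same length part. NF1 encodes neurofibromin, which switches RAS off, and spans 282.7 kb of chromosome 17 (31094977 to 31377675, plus strand). It held 4 smoke and 3 air peaks. The strongest smoke peak of NF1, chr17:31168521-31168871, reached a −log10 q of 3.22 at fold 5.91, tied from rank 204 on, and 2.13% of smoke peaks were as strong or stronger. The next, chr17:31343191-31343460, had a fold of 5.37. All 3 air peaks of NF1 lay in the latter part of the gene, 187 to 237 kb from the start, and 1 of them also overlapped EVI2B, a gene nested in NF1. An air peak (31332084 to 31332364) and a smoke peak (31333484 to 31333787) there lay 1.12 kb apart, the closest pair of the list.

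PIK3CA, the catalytic subunit of phosphoinositide 3-kinase, had 1 peak of each library, 54.5 kb apart. The smoke peak lay 28.2 kb from the start (fold 2.87) and the air peak 83.1 kb from it (fold 4.06). EGFR, the epidermal growth factor receptor, spans 192.6 kb on chromosome 7 (55019017 to 55211628) and had no peak over the gene. Of the 200 genes nearest to it in length 8.50% had none within 1 kb in either library. Its nearest peaks lay upstream, a smoke peak 23.1 kb and an air peak 10.8 kb from the span. ERBB3, a receptor that signals through its partners, had 1 air peak 18.2 kb away with a q of 0.00323. The small GTPase genes RHOA and RHOB had a smoke peak at 22.1 and 13.6 kb, and RHOB also an air peak at 49.2 kb. The receptor genes FGFR3 and ERBB2, the RAS gene HRAS and TSC1, whose product restrains mTOR, lay more than 50 kb from any listed peak.

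**Figure D3:**
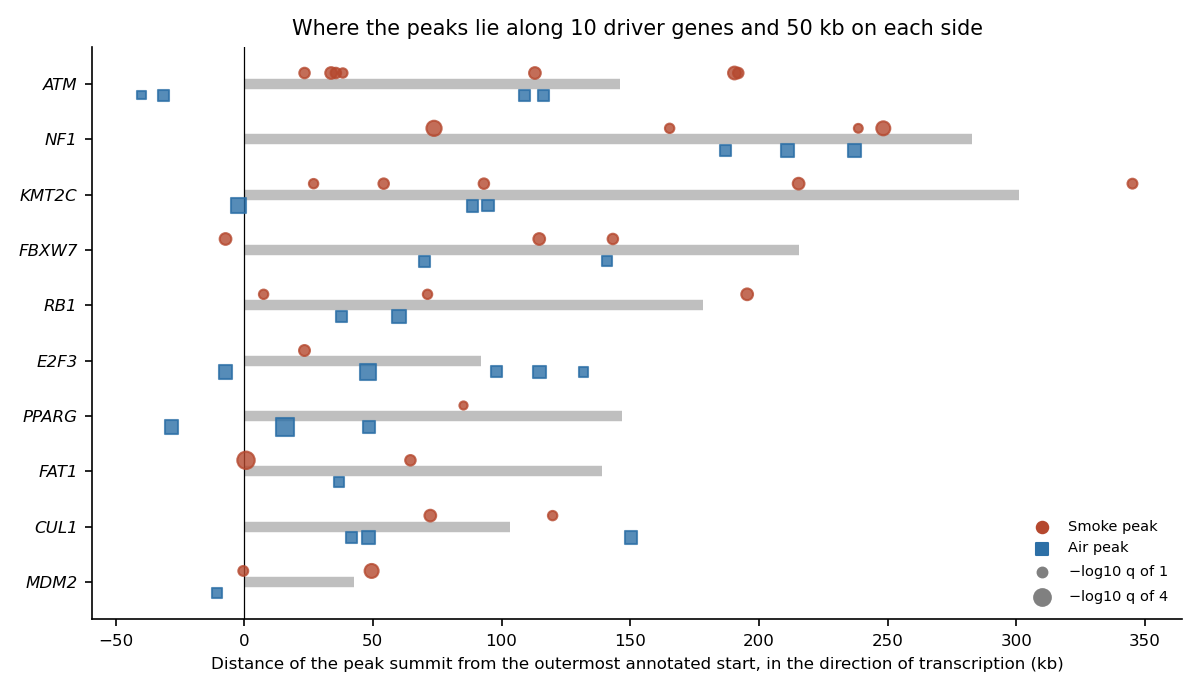
Peak summits of the smoke library (circles, above) and air library (squares, below) along 10 driver genes, in kb from the outermost annotated start; grey bars are the gene spans and larger symbols have a higher −log10 q. The smoke peak of FAT1 sits at its start, the first 4 smoke peaks of ATM fall within 15.1 kb, and 5 air peaks surround E2F3.

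Chromatin regulators were the role with most genes carrying peaks, 7 of 11. Genes of the same length part would leave 3.59 without a peak, and 4 were without. KMT2C, a histone H3 lysine methyltransferase of enhancers, is the longest driver gene at 301 kb (chromosome 7, 152134925 to 152436003, minus strand). It held 4 smoke and 2 air peaks. The 4 smoke folds ran from 3.22 to 4.30 and the 2 air folds were 4.06 and 4.17. One smoke and 1 air peak were 1.36 kb apart, 93.1 and 94.7 kb from the start. A further air peak lay just outside the 1 kb limit, chr7:152438122-152438367, with its summit 2.24 kb upstream of the start and a −log10 q of 3.10 at fold 5.64. CREBBP had 1 peak of each library, 36.5 kb apart, with folds of 3.73 in smoke and 4.64 in air.

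The other 5 chromatin genes with peaks had them in one library alone. Of the 5, 2 had only smoke peaks and 3 only air peaks, where genes of the same length part sum to 1.55 and 1.81. The 2 chromatin genes with peaks of both libraries stand beside a sum of 4.05. These differences were not tested. ARID1A, a subunit of the BAF remodelling complex, had 1 smoke peak 7.81 kb from its start (fold 3.76), and the nearest air peak was 252 kb from the gene. PSIP1, which tethers MLL complexes to chromatin, had 1 smoke peak (fold 3.76), and 2 air peaks lay 13.8 and 19.7 kb outside the gene. KMT2A, the methyltransferase of the MLL complex, had 2 air peaks with folds of 3.13 and 3.47, and a smoke peak lay 6.61 kb upstream. ASXL2, a partner of the deubiquitinase BAP1, had 2 air peaks with folds of 4.06 and 3.28. EP300 had 1 air peak with a fold of 2.90 and a q of 0.209, among the weakest of the air list. Of these 7 one-library peaks only that of ASXL2 at fold 4.06 had a q of 0.05 or lower.

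KDM6A, KMT2D, ASXL1 and BAP1 lay more than 50 kb from any listed peak. KDM6A removes methyl groups from histone H3 lysine 27 and spans 239.6 kb of chromosome X (44873188 to 45112779). Smoke peaks began 95.8 kb away and air peaks 370 kb away. Of the 200 genes nearest to KDM6A in length, 5.00% had none within 50 kb in either library, as did 14.8% of the 81 genes of its length part on chromosome X. KMT2D, the sister enzyme of KMT2C, lay 88.4 kb from a smoke peak and 138 kb from an air peak.

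In the cell cycle and p53 group 5 of 9 genes had a peak within 1 kb, and 4.54 genes without one would come from gene length, against 4. RB1, which holds E2F factors in check, had 2 peaks of each library over 178 kb. Its smoke folds were both 3.22 and its air folds 4.06 and 5.22. E2F3, one of those factors and often amplified in bladder cancer, had 1 peak of each library in the gene. The air peak, chr6:20449856-20450061, reached a −log10 q of 3.82 at fold 6.34, rank 102 of 27010, and the smoke peak a fold of 3.86. Within 50 kb E2F3 had 5 air peaks and 1 smoke peak, and 3.50% of the 200 genes nearest in length had as many air peaks. No other driver gene had as many air peaks within 50 kb, so that share describes an extreme. Outside the gene the 4 other air peaks lay 7.17 kb upstream and 5.71, 22.9 and 39.9 kb downstream.

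FBXW7, the substrate adaptor that sends cyclin E and MYC for degradation, had 2 peaks of each library, with 1 smoke and 1 air peak 1.95 kb apart. CUL1, the scaffold of the ubiquitin ligase that FBXW7 serves, had 1 smoke peak and 2 air peaks, with folds of 3.99, 3.75 and 4.69. MDM2 had the smoke peak at its start given above. A second smoke peak lay 6.90 kb beyond the gene with a fold of 5.37 and a q of 0.00225, over the neighbouring gene CPM. CCND1, encoding cyclin D1, had a smoke peak 31.5 kb away, and BTG2, an antiproliferative gene, 2 smoke peaks and 1 air peak from 4.69 to 35.0 kb away. The genes of the inhibitors of cyclin-dependent kinases on the list, CDKN1A and CDKN2A, had no peak within 50 kb.

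ATM, the kinase that signals DNA double-strand breaks, had the most smoke peaks of all driver genes, 5 against 2 in air. The gene lies on chromosome 11 from 108223067 to 108369102, on the plus strand. The first 4 smoke peaks fell within 15.1 kb, from 23.5 to 38.3 kb after the start, and no air peak lay within 54.6 kb of them. Their folds ran from 3.22 to 4.30, and 1 of the 4, chr11:108256725-108256998, had a q of 0.0207, under 0.05. The fifth smoke peak (fold 4.30) and both air peaks (folds 4.06 and 3.74) lay together 109 to 116 kb from the start, where C11orf65 overlaps ATM. Of the 200 genes nearest in length to ATM 2.00% had as many smoke peaks and 35.5% as many air peaks. ATM is the highest of 47 genes, so that share describes an extreme. At a q of 0.05 or lower ATM kept 2 smoke and 2 air peaks. Of the 5 genes of DNA repair, cohesin, telomere and splicing, 4 had no peak within 1 kb, against a sum of 2.35 by length part. STAG2, a cohesin subunit, had 1 smoke peak 15.7 kb away. The helicase gene ERCC2 of nucleotide excision repair, the telomerase gene TERT and the splicing factor gene SF3B1 had no peak within 50 kb.

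Among 8 transcription factor genes PPARG and KLF5 had peaks within 1 kb. The other 6 were without, against a sum of 5.48 genes without a peak from genes of the same length part. PPARG, a nuclear receptor of luminal urothelial differentiation, had the strongest air peak of any driver gene. It lay on chr3:12303065-12303377, 15.8 kb inside the gene and 1.22 kb downstream of one of its 6 annotated starts. The fold was 6.96 and the −log10 q 4.72, rank 29 of 27010, and no smoke peak lay within 68.8 kb. A second air peak in PPARG had a fold of 4.64, and the only smoke peak a fold of 2.69 with a q of 0.301. RXRA, which pairs with PPARG on DNA, had no peak within 50 kb over its 114 kb and beyond, where 13.5% of the 200 genes nearest in length had none.

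KLF5, an epithelial zinc finger factor, had 1 smoke peak with a fold of 3.34 and a q of 0.0914, and 2 air peaks lay 32.0 and 46.5 kb upstream of it with folds of 5.01 and 4.97. GATA3, a luminal factor, had 1 smoke peak 6.88 kb upstream of its start (fold 4.30, q 0.0182), and the nearest air peak was 76.7 kb from the gene. FOXA1, a pioneer factor that opens chromatin for other factors, had 2 smoke and 3 air peaks within 50 kb and none within 1 kb. A pair of these, 1 of each library, lay 1.38 kb apart about 22 kb upstream. FOXQ1 had 1 air peak 39.4 kb away. The epithelial factor gene ELF3 and NFE2L2, which encodes the antioxidant regulator NRF2, had no peak within 50 kb.

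In the last group 2 of 4 genes had no peak within 1 kb, against a sum of 2.52 by length part. FAT1 had a second smoke peak (fold 3.76) and 1 air peak (fold 3.48) farther into the gene. SPTAN1, a spectrin of the membrane skeleton, had 1 smoke peak 12.6 kb away. TXNIP, which binds and inhibits thioredoxin, had 1 smoke peak at 8.84 kb and 1 air peak at 19.9 kb.

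**Figure D4:**
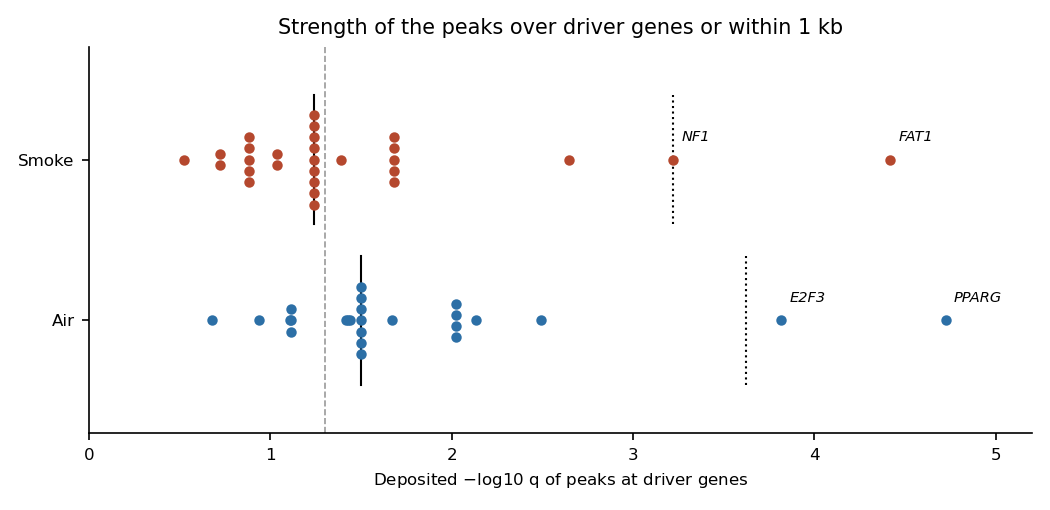
Deposited −log10 q of the 28 smoke and 25 air peaks over driver genes or within 1 kb; solid lines are the medians of the whole lists, dotted lines the value passed by the top 1%, and the dashed line a q of 0.05. FAT1 in smoke and PPARG and E2F3 in air lie beyond the dotted lines, and NF1 in smoke lies on it.

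In median fold and −log10 q the peaks at driver genes were close to their lists. The median fold was 3.76 in smoke and 4.06 in air, beside 3.76 and 3.93 over all listed peaks, and the median −log10 q, 1.24 and 1.50, equalled that of each list. Median widths were 266.5 bp in smoke and 275 bp in air. Nearer to the outermost start than to the other end of the gene lay 16 of 27 smoke and 15 of 25 air peaks with a summit inside a gene. The same share over peaks in all protein-coding genes was not counted, so no lean towards the start is read from these counts.

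Within 50 kb 31 of the 47 driver genes had a peak of either library (72.1% of the background genes), 28 in the smoke library and 25 in the air library (53.3% and 55.5%). Genes of the same length parts sum to 28.6 and 29.5. The remaining 16, named above by role, had none in either library, against a sum of 10.2. With the 200 genes nearest in length the sum was 10.5. Genes without peaks lay among more neighbours. The 16 driver genes had a median of 16.5 other protein-coding genes within 500 kb and the 19 with a peak within 1 kb had 9, and over all protein-coding genes these medians were 21 and 9. Summed over genes of the same length part and similar numbers of neighbours, the expected number without a peak was 10.2.

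The longest stretch without a listed peak around a driver gene was 995 kb at ERCC2. It lay 482 kb from a smoke peak and 706 kb from an air peak. Of the 205 genes of its length part on chromosome 19, 39.0% had no peak within 50 kb in either library. A stretch as long held 4.85% of all protein-coding genes without a peak over their span. That share describes an extreme, since ERCC2 had the longest stretch of the driver genes. CDKN2A, which encodes the tumour suppressors p16INK4a and p14ARF, followed with 917 kb (5.48%), with peaks 286 kb away in smoke and 486 kb in air. At ASXL1 the stretch was 792 kb and at KDM6A 705 kb. Copy number was not measured here.

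**Figure D5:**
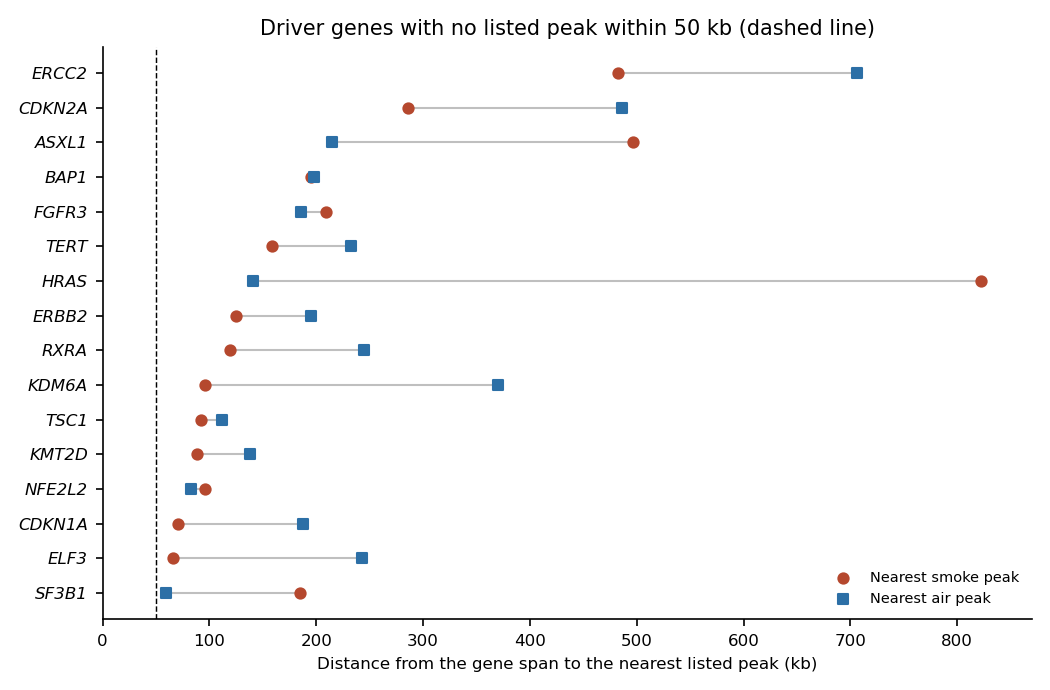
Distance in kb from the gene span to the nearest smoke peak (circles) and air peak (squares) for the 16 driver genes with none within 50 kb (dashed line). SF3B1, ELF3 and CDKN1A lie closest to the line, and ERCC2 is far from peaks of both libraries.

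A second list held 59 further genes of the same 6 roles, among them FGFR1, SETD2, CDK6, SMC3 and FAT4. Of these, 30 had a peak within 1 kb in either library: 19 had peaks of both, 4 of smoke only and 7 of air only, and 29 had none, against a sum of 28.4 from genes of the same length part. They held 56 smoke and 78 air peaks, where the length parts give 56.4 and 64.6. No peak was found in either library within 50 kb of 14, against a sum of 12.2.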

How the data were processed

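ChIP-seq peak lists of 1 smoke and 1 air library were used. Per the submitters' processing notes, the tools were MACS2, MACS and Bowtie2 and the builds hg38 and mm10; the sources used here give no versions, settings, roles or peak filter. The deposited lists have the narrowPeak layout: a score, a fold over background, −log10 p, −log10 q and a summit offset. The deposited score was not used. Read depth, and so the precision it gives, is unknown.

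Peaks were counted over gene spans of the GRCh38.p14 gene table (20033 protein-coding genes on chromosomes with names 1 to 22, X and Y; neither list has a peak on Y) by an overlap of at least 1 bp, within 1 kb and within 50 kb (Python 3.11.15, pandas 2.3.3, scipy 1.17.1). Counts equalled those of bedtools 2.31.1, and 200 genes with planted peaks among 19970 were all recovered on simulated data. Length parts are deciles of gene span. No test was run, since each group has 1 library; intervals are Wilson's at 95%, for counting error alone. Groups came from the treatment labels. The genes and lists were chosen with earlier results of these data known. Genes were described singly by rule: a peak at a gene end, peaks in 1 list alone, the most peaks, the largest difference, a rank in the top 1% of a list, or none within 50 kb; single values of genes outside this rule were picked with those values in view. Alternatives covered thresholds, distances, placement by summit, equal list sizes, other length matching and leaving out genes. The promoter table holds no entry for ERBB3, BAP1 and CCND1.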

Additional observations from a re-analysis of the deposited data

How the results depend on the processing

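Thresholds on peak strength changed the counts most. A q of 0.05 or lower left 10637 of the 23975 smoke peaks and 16307 of the 27010 air peaks. Why the 2 lists lost unequal shares was not tested. At a q of 0.05 or lower, 7 driver genes had a smoke peak within 1 kb, beside 14.4% of all protein-coding genes. Of the driver genes 1 had peaks in smoke alone against 6 in air alone. Smoke peaks numbered 9, a share of 32.1% against 39.2% at all protein-coding genes. Within 50 kb 16 driver genes had a smoke peak, and the share of all genes was not counted there. At a −log10 q of at least 2, 2 driver genes had a smoke peak and 6 an air peak, beside 7.15% and 10.5% of all protein-coding genes. Peaks lay in smoke alone at 1 driver gene and in air alone at 5. They numbered 3 in smoke and 8 in air, a smoke share of 27.3% against 38.0% at all protein-coding genes. At a fold of at least 5, 2 driver genes had a smoke and 3 an air peak, beside 2.83% and 4.74% of all protein-coding genes. Peaks lay in smoke alone at 2 driver genes and in air alone at 3. Each library had 3 peaks at driver genes, and the smoke share at all protein-coding genes was 35.0%. The shares of all genes with peaks in 1 library alone were not counted at these cuts. Summit placement, distances of 0 and 3 kb, equal list sizes, leaving out chromosome X or the longest gene, distances of 25 and 100 kb and the other length matchings kept each count within 1.5 times its value and the smoke share inside its interval. Matching by the 200 genes nearest in length, by neighbouring genes and by chromosome density, and the alternatives for the smoke share, were added after the data were seen. With 1 library per group no replicate could be left out. No paired analysis was possible because each group has 1 library and the results come from no test.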
